A study of Mus musculus with 3 samples.

Results

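The cells described here are the hepatocyte barcodes of a single-cell survey of mouse liver, 522 of 28002 deposited barcodes. They were chosen by their own measured counts, with a relaxed mitochondrial limit, so the values of the rule describe the choice. A barcode needed at least 200 genes, at most 40% of its unique molecular identifiers (UMIs, counted molecules) from mitochondrially encoded genes, and at least 3% from the 6 plasma protein genes Alb, Apoa1, Ttr, Trf, Fgb and Serpina1c with at least 5 of the 6 detected. Epcam, Krt19, Krt7 and Tspan8, genes of bile duct or other epithelia, had to be at 0 UMIs, and S100a8 and S100a9, which encode the neutrophil protein calprotectin, had to hold under 2% together. The rule found 268 barcodes in the library of day 4, 133 at day 21 and 121 in the control, among 7334, 11704 and 5800 barcodes within the gene and mitochondrial limits in the same order.

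All 3 libraries were made with 10x Genomics 3' chemistry from female Balb\c mice, whose livers had been perfused and dissociated and the non-parenchymal cells prepared. The day 4 mice, aged 8 weeks, and the day 21 mice, aged 11 weeks, had received an orthotopic injection of 4T1 cells, a mammary carcinoma line of the same strain. The control mice, aged 8 weeks, had received phosphate-buffered saline (PBS). There was 1 library per group, so differences between groups have no replicate check, and age and time after injection cannot be told apart at day 21. Intervals are 95% and cover counting error only, leaving out variation between mice and between cells. In a library of this kind fewer cells of a type and fewer cells recovered from the tissue cannot be told apart.

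Hepatocytes are the parenchymal cells of the liver. They secrete most plasma proteins, make urea and glucose, synthesise lipids and bile acids, and break down drugs. They carry many mitochondria, so a low limit on mitochondrial RNA that suits immune cells can remove them. Their functions are zoned along the lobule, with urea and glucose production strongest near the portal vein and drug metabolism and glutamine synthesis strongest near the central vein.

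Before any comparison, several features of the libraries bear on these barcodes. The libraries held 34833820 UMIs at day 4, 51913215 at day 21 and 27191082 in the control, and the hepatocyte barcodes held 1329761, 287674 and 841418 of them. Gm42418, a gene model that overlaps ribosomal RNA sequence, took over 10% of the UMIs in 2 hepatocyte barcodes at day 4, 0 at day 21 and 43 in the control, which is 35.5% of the control's. The day 21 library was rich in neutrophils: S100a8 stood at 1204 CPM (counts scaled to a total of 1000000) at day 4, 75006 CPM at day 21 and 258 CPM in the control among the remaining barcodes. In the hepatocyte barcodes S100a8 was at 5.26, 946 and 1.19 CPM, and at least 1 UMI of it was found in 1.87, 72.2 and 0.826% of them. The neutrophil list, which includes S100a8 and S100a9, was highest at day 21. Its summed level was 70.7 CPM at day 4, 3302 CPM at day 21 and 88.0 CPM in the control. At day 21 S100a8 and S100a9 made up 946 and 1199 CPM of it. In the same order of libraries, 6, 10 and 4 of its 10 genes were detected, and 234, 5 and 110 hepatocyte barcodes had none of its UMIs. The share of this list in a single barcode ran up to 0.293% at day 4, 1.30% at day 21 and 0.2% in the control. The rule itself held S100a8 and S100a9 under 2% together, so these maxima partly describe the choice. The part of this neutrophil RNA in the day 21 results was not tested. Barcode sequences found in more than 1 library numbered 45 at day 4, 54 at day 21 and 35 in the control. They included 4 hepatocyte barcodes, all at day 4, and 0 barcode sequences were hepatocyte barcodes in more than 1 library.

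The markers bear the name out in sums over barcodes. Alb, the main plasma protein, stood at 53108 CPM at day 4, 43511 CPM at day 21 and 58109 CPM in the control, against 791, 169 and 872 CPM in the remaining barcodes. Alb and Ttr, the thyroxine carrier transthyretin, are rule genes, so their levels describe the choice. The other markers were not used by the rule. Cps1, the entry enzyme of the urea cycle, was at 1484 CPM at day 4, 831 CPM at day 21 and 898 CPM in the control, against 14.5, 2.72 and 9.56 CPM in the remaining barcodes. Cyp2e1, an ethanol-oxidising cytochrome P450, was at 1182, 751 and 1840 CPM, against 18.1, 4.43 and 21.97 CPM. Hnf4a, the transcription factor that maintains hepatocyte identity, was at 225, 174 and 190 CPM, against 2.61, 1.49 and 2.44 CPM. All of these markers were thus far higher in the hepatocyte barcodes of every library than in the rest.

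The same check is weaker barcode by barcode. Hnf4a was detected in 23.9% of hepatocyte barcodes at day 4, 29.3% at day 21 and 30.6% in the control, against 1.06, 0.536 and 1.04% of the remaining barcodes. Cps1 was detected in 34.7, 32.3 and 34.7% of hepatocyte barcodes. Free Alb RNA was widespread, since 82.6% of the remaining barcodes at day 4, 26.1% at day 21 and 83.3% in the control held at least 1 Alb UMI. These remaining barcodes were deeper, with median UMI counts of 3250.5, 2821 and 3251 against 1031, 902 and 1219 in the hepatocyte barcodes. Lists of endothelial, Kupffer and stellate cells were low: endothelial genes summed to 156, 285 and 247 CPM against 9592, 2346 and 10960 CPM in the remaining barcodes, Kupffer cell genes to 165, 174 and 77.3 CPM against 9933, 1375 and 5438 CPM, and stellate cell genes to 71.4, 233 and 134 CPM against 5853, 1140 and 6162 CPM. Erythroid genes summed to 160 CPM at day 4, 1915 CPM at day 21 and 57.0 CPM in the control, against 6052, 1793 and 2139 CPM in the remaining barcodes, and 1 shallow day 21 barcode held 34.4% of its UMIs in them. The list of 4T1-type epithelial genes was higher in the hepatocyte barcodes, at 555, 907 and 556 CPM against 62.6, 26.9 and 50.3 CPM in the remaining barcodes, with 3 of its 10 genes detected in each library. Most of this was Krt8 (225, 355 and 225 CPM, against 18.97, 7.62 and 13.8 CPM) and Krt18 (299, 528 and 304 CPM, against 21.1, 11.99 and 15.9 CPM), keratins that hepatocytes also express, while Krt14 and Krt6a were at 0 UMIs in all 3 libraries.

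Hepatocyte barcodes made up 3.65% of kept barcodes at day 4 (Clopper-Pearson interval 3.24 to 4.11%), 1.14% at day 21 (0.952 to 1.35%) and 2.09% in the control (1.73 to 2.49%). The ratio of shares to the control was 1.75 at day 4 (1.41 to 2.16) and 0.545 at day 21 (0.427 to 0.695). Both ratios depended on the barcodes counted. In a setting chosen after seeing the data, barcodes over 10% Gm42418 were left out of the hepatocyte count but kept in the denominator. The ratios were then 2.68 (2.09 to 3.45) and 0.843 (0.639 to 1.11). With a plasma protein threshold of 10% the day 4 ratio was 1.15 (0.628 to 2.12). Counted against barcodes that were not rich in calprotectin RNA, the day 21 ratio was 0.906 (0.710 to 1.16). The intervals of 0.843, 1.15 and 0.906 include equal shares.

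The thresholds cut through a continuum. Just inside the plasma protein limit lay 24 barcodes at day 4, 20 at day 21 and 16 in the control, the lowest at 3.002, 3 and 3.01% of UMIs. Just outside lay 23, 20 and 7, the highest at 2.99, 2.99 and 2.95%. At the mitochondrial limit 10, 5 and 6 barcodes lay just inside, the highest at 39.8, 36.8 and 39.0%, and 13, 1 and 6 just outside, the lowest at 40.2, 44.9 and 40.9%. A further 44 barcodes at day 4, 2 at day 21 and 19 in the control met every other condition but exceeded 40%.

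The hepatocyte barcodes fell into a few deep ones and many shallow ones. Those with 5000 or more UMIs numbered 45 at day 4, 15 at day 21 and 25 in the control, which is 16.8, 11.3 and 20.7% of the barcodes, yet they held 81.0, 53.8 and 84.9% of the UMIs. Their median depth was 23633 UMIs and 3912 genes at day 4, 8993 UMIs and 2221 genes at day 21, and 30114 UMIs and 4279 genes in the control. Barcodes with under 2000 UMIs numbered 196, 104 and 79, with median depths of 811.5, 821 and 868 UMIs. The remaining 27, 14 and 17 barcodes lay between these limits. Summed levels therefore describe mainly the deep barcodes at day 4 and in the control, and less so at day 21.

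Deep and shallow barcodes differed in RNAs that stay in the nucleus. Neat1, the long noncoding RNA that builds paraspeckles, had 569 UMIs in deep barcodes at day 4, 65 at day 21 and 400 in the control, against 1, 0 and 1 UMI in all the shallow barcodes of each library. Xist, which coats the inactive X chromosome of female cells, had 604, 80 and 399 UMIs in deep and 1, 3 and 3 UMIs in shallow barcodes. Malat1, also retained in the nucleus, stood at 3378, 2751 and 4177 CPM in deep and 584, 298 and 2229 CPM in shallow barcodes. None of the 3 RNAs was found in 124 shallow barcodes at day 4, 81 at day 21 and 38 in the control, nor in 4, 1 and 2 deep ones. Shallow depth lowers such detection counts. The UMI totals depend on the UMIs of each class, 1077164, 154854 and 714207 in deep and 181594, 94000 and 76268 in shallow barcodes. Scaled to CPM, Neat1 stood at 528, 420 and 560 CPM in deep and 5.51, 0 and 13.1 CPM in shallow barcodes. Xist stood at 561, 517 and 559 CPM in deep and 5.51, 31.9 and 39.3 CPM in shallow barcodes.

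**Figure D1:**
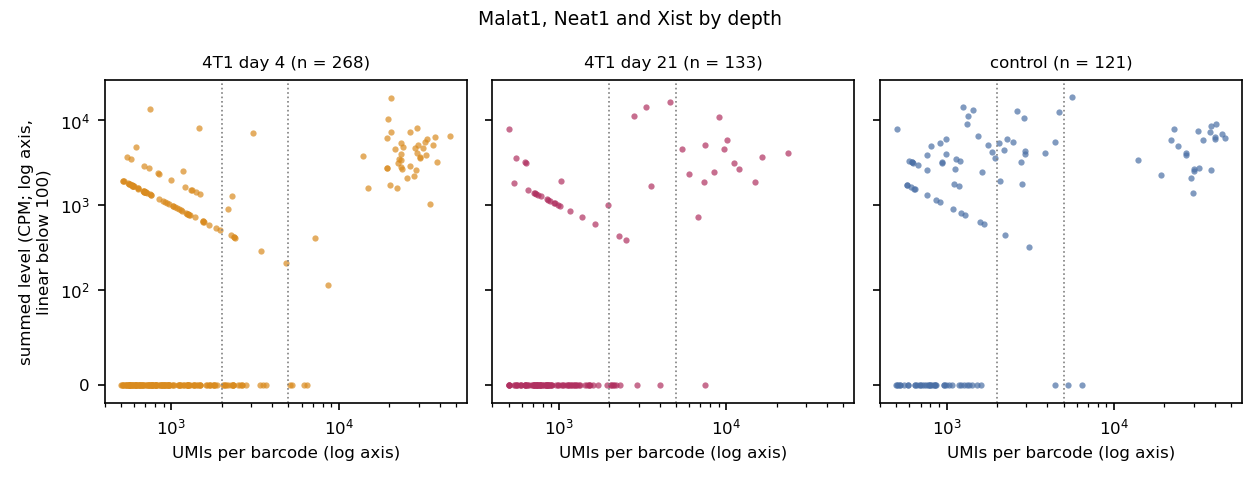
UMIs per hepatocyte barcode (log axis) against the summed level of Malat1, Neat1 and Xist in CPM (log axis, linear below 100) at day 4 (n = 268), day 21 (n = 133) and in the control (n = 121), 1 point per barcode, with dotted lines at 2000 and 5000 UMIs. Points at 0 hold none of the 3 RNAs and number 124, 81 and 38 below 2000 UMIs and 4, 1 and 2 from 5000 UMIs up, and the slanting rows are barcodes with a few UMIs.

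Among 631 genes with enough UMIs in all 3 libraries, 59 (9.35%) reached 2-fold higher and 9 (1.43%) 2-fold lower in deep than in shallow barcodes in every library. The higher ones included 7 of 13 complement genes, 9 of 22 secreted plasma protein genes and 6 of 17 coagulation genes. The secreted plasma protein count includes Alb, a rule gene on whose level the barcodes were chosen. Cp, which encodes the copper carrier ceruloplasmin, stood at 696 CPM in deep and 165 CPM in shallow barcodes at day 4, 1447 and 106 CPM at day 21, and 879 and 184 CPM in the control. Cps1 stood at 1760 and 303 CPM at day 4, 1227 and 298 CPM at day 21, and 1014 and 170 CPM in the control. The 9 lower genes were Akr1c6, Rtraf, Psma4, Rgn, Psmb1, Dnaja1, Pomp, Alad and Pebp1, of which Psma4 and Psmb1 encode proteasome subunits and Pomp a proteasome assembly factor. Akr1c6, a hydroxysteroid dehydrogenase, stood at 904 CPM in deep and 3513 CPM in shallow barcodes at day 4, 652 and 2787 CPM at day 21, and 707 and 2111 CPM in the control. Values per barcode are therefore given mainly for the deep ones.

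Among deep barcodes, those that the relaxed limit admitted were nearly all of the periportal kind. Between 20 and 40% mitochondrial UMIs lay 93 of the hepatocyte barcodes at day 4 (34.7%), 27 at day 21 (20.3%) and 61 in the control (50.4%). Of the deep barcodes, 16 at day 4, 3 at day 21 and 11 in the control lay in that range. Cyp2f2, a cytochrome P450 most abundant in periportal hepatocytes, was detected in 15 of the 16, 3 of the 3 and 11 of the 11, while Cyp2e1, which marks pericentral hepatocytes, was detected in 2, 0 and 0. Among the deep barcodes with at most 20%, 29, 12 and 14 in number, Cyp2f2 was detected in 14, 8 and 4, and Cyp2e1 in 18, 6 and 10. A limit of 20% would thus have taken 11 of the 15 control deep barcodes with Cyp2f2 and 0 of the 10 with Cyp2e1.

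Put the other way round, deep barcodes with Cyp2f2 and no Cyp2e1 numbered 24 at day 4, 9 at day 21 and 15 in the control, and had median mitochondrial shares of 21.9% (12.2 to 33.1%), 18.3% (14.4 to 31.1%) and 21.2% (13.9 to 26.2%). Those with Cyp2e1 and no Cyp2f2 numbered 15, 4 and 10, with medians of 13.3% (0.256 to 24.3%), 10.5% (7.28 to 19.6%) and 12.6% (1.58 to 17.0%). The ranges of the 2 kinds overlapped in each library, and the higher median was in the Cyp2f2 barcodes in all 3. Median depths were 26098.5, 9655 and 30151 UMIs with Cyp2f2 alone, and 21521, 7135.5 and 29228 UMIs with Cyp2e1 alone. Both genes were found together in 5, 2 and 0 deep barcodes, and neither in 1, 0 and 0. Deep barcodes over 40% that met every other condition numbered 9 at day 4, 0 at day 21 and 8 in the control. Cyp2f2 was in 7 of the 9 and 6 of the 8, and Cyp2e1 in 2 of each. At 20 to 40% the control had Cyp2f2 in 11 of 11 and Cyp2e1 in 0. The difference between these ranges was not tested.

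**Figure D2:**
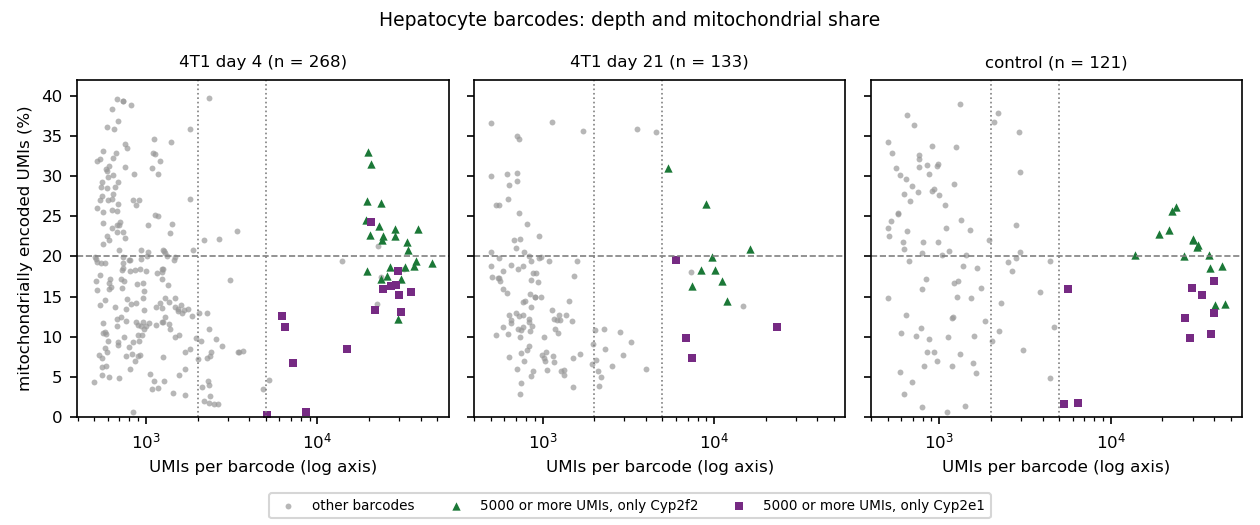
UMIs per hepatocyte barcode (log axis) against the percentage of UMIs from mitochondrially encoded genes at day 4 (n = 268), day 21 (n = 133) and in the control (n = 121), with deep barcodes marked by which zonal P450 they held. Dotted lines mark 2000 and 5000 UMIs and the dashed line 20%, above which 16, 3 and 11 deep barcodes lie, nearly all triangles (only Cyp2f2).

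The genes lower at a high mitochondrial share included pericentral ones. Of 742 genes compared at all depths, 0 (0%) reached 2-fold higher and 11 (1.48%) 2-fold lower in barcodes with 20 to 40% than in barcodes with at most 20% in all 3 libraries: Fabp5, Cyp2c50, Lect2, Akr1c6, Sord, Cyp1a2, Cyb5a, Alad, Oat, Gstm1 and Egr1. Of the pericentral list, 5 of 14 genes were among them, with median log2 ratios of -1.29 at day 4, -0.79 at day 21 and -3.12 in the control, against -0.28, -0.43 and -0.21 over all genes compared. Of the periportal list, 0 of 14 were among them, with medians of 0.34, 0.19 and 0.83. Oat, ornithine aminotransferase of pericentral hepatocytes, stood at 287 CPM above and 1388 CPM below the 20% limit at day 4, 725 and 1523 CPM at day 21, and 20.3 and 1164 CPM in the control. Within deep barcodes 4 of 368 genes (1.09%) were lower in all 3 libraries, Cyp2e1, Akr1c6, Ang and Cyb5a. Cyp2e1 had 150 UMIs above and 1084 below the limit at day 4, 0 and 83 at day 21, and 0 and 1388 in the control.

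Other zonal genes sorted with the same pair. Glul, which encodes glutamine synthetase and marks the cells next to the central vein, reached 1000 CPM or more in 6 deep barcodes at day 4 (5465 to 8550 CPM), 0 at day 21 and 3 in the control (1547 to 11600 CPM). All of these held Cyp2e1 and none held Cyp2f2, and the highest Glul level in any other deep barcode was 905, 167 and 556 CPM. Alb, a rule gene whose level was part of the choice of barcodes, had medians of 74364, 76231 and 82321 CPM in the deep barcodes with Cyp2f2 alone, and 22303, 30534 and 30399 CPM in those with Cyp2e1 alone. Cps1, a periportal gene, had medians of 2213, 1476 and 1461 CPM with Cyp2f2 alone and 313, 678 and 452 CPM with Cyp2e1 alone. Hnf4a showed no common direction, with medians of 257, 123 and 182 CPM against 165, 64.6 and 204 CPM. In shallow barcodes Glul had 297, 221 and 105 UMIs and reached 10 or more UMIs in 10, 10 and 5 single barcodes, so Glul-rich barcodes at day 21 were present at low depth. Cyp2f2 alone was held by 53.3% of deep barcodes at day 4, 60% at day 21 and 60% in the control. Cyp2e1 alone was held by 33.3, 26.7 and 40% of them. The part of this mix of zones in the results that follow was not tested, except where values for deep barcodes with Cyp2f2 are given.

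**Figure D3:**
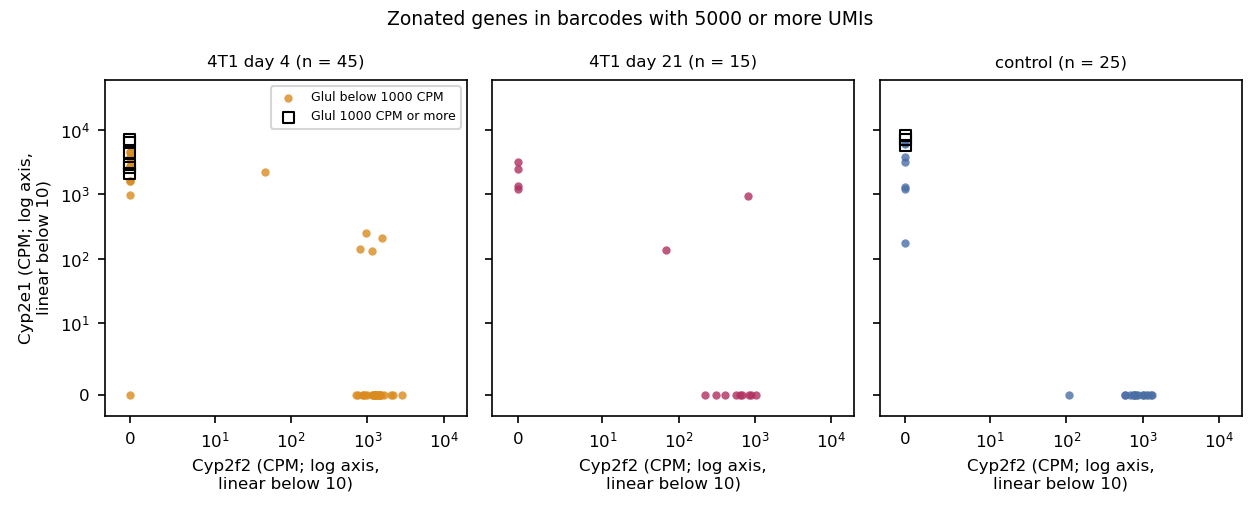
Cyp2f2 against Cyp2e1 in CPM (log axes, linear below 10) in single hepatocyte barcodes with 5000 or more UMIs at day 4 (n = 45), day 21 (n = 15) and in the control (n = 25), with open squares where Glul reached 1000 CPM. Most points lie on one axis or the other, 5, 2 and 0 barcodes hold both genes, and the 6, 0 and 3 squares all lie at 0 Cyp2f2.

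The comparisons of expression ask what the hepatocytes carried early and late after tumour cell injection. Counts were summed over the hepatocyte barcodes of a library, and genes with at least 50 UMIs over the pair of libraries were compared. A gene is called higher or lower here when its log2 ratio passed 2-fold, which is a rule of size and not a test. The day 4 and day 21 comparisons share the control library. The median log2 ratio of all genes compared was 0.07 at day 4 and 0.18 at day 21, and list medians are read against these values.

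At day 21 the hepatocyte barcodes carried high levels of acute phase messages, the genes that hepatocytes switch on in systemic inflammation. Of 2379 genes compared, 132 (5.55%) reached 2-fold higher and 121 (5.09%) 2-fold lower levels than in the control. With a median-of-ratios scaling the split was 63 higher and 182 lower. Of 28 acute phase genes, 10 were higher and 1 was lower, with a median log2 ratio of 0.71, and in deep barcodes 13 of 28 were higher with a median of 0.95, beside 76 of 1900 genes (4%) and a median of 0.02 over all genes there. Of the genes named by ratio, the highest 3 were Saa2, Saa1 and Orm2. Saa1 and Saa2 encode the serum amyloid A apolipoproteins, and Orm2 an orosomucoid that binds drugs in plasma.

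Saa1 (chr7:46740497-46742980 on GRCm38, minus strand) had 136 UMIs or 102 CPM at day 4, 590 UMIs or 2051 CPM at day 21 and 70 UMIs or 83.2 CPM in the control. In deep barcodes it was detected in 26 of 45 at day 4 (lowest 0, median 29.8, highest 413 CPM), 15 of 15 at day 21 (334, 2281 and 4860 CPM) and 11 of 25 in the control (0, 0 and 811 CPM). The day 21 range overlapped the other ranges only at its low end. The summed level at day 21 was 24.5-fold that of the control, a log2 ratio of 4.61 (4.26 to 5.002) overall and 4.70 in deep barcodes. Shallow barcodes showed the same order, with Saa1 in 15 of 196 at day 4, 52 of 104 at day 21 and 3 of 79 in the control. Among the remaining barcodes Saa1 was at 1.29, 6.09 and 0.720 CPM, so its RNA was concentrated in the hepatocyte barcodes.

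Saa2 (chr7:46751790-46754313, plus strand) had 17 UMIs or 12.8 CPM at day 4, 371 UMIs or 1290 CPM at day 21 and 9 UMIs or 10.7 CPM in the control. It was detected in 3 of 45 deep barcodes at day 4, 14 of 15 at day 21 and 1 of 25 in the control, whose only positive deep barcode stood at 181 CPM. The day 21 level was 114-fold that of the control, a log2 ratio of 6.84 (5.97 to 8.05). Orm2 (chr4:63362449-63365878, plus strand) had 18 UMIs or 13.5 CPM at day 4, 93 UMIs or 323 CPM at day 21 and 16 UMIs or 19.0 CPM in the control, a log2 ratio of 4.05 (3.31 to 4.95) at day 21. It was detected in 9 of 45 deep barcodes at day 4, 11 of 15 at day 21 and 7 of 25 in the control, with highest levels of 87.2, 1260 and 123 CPM. Saa1 with Saa2, and Orm1 with Orm2, are near-identical pairs, so how the deposited counts divide between the partners is uncertain.

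The upstream sequences of these 3 genes are shown because they had the highest ratios and because the serum amyloid pair is nearly alike there as well. They are the RefSeq promoter windows on GRCm38.p6, each 300 bases long, 5′ to 3′ on the strand of the gene, at chr7:46742931-46743230 (minus) for Saa1, chr7:46751583-46751882 (plus) for Saa2 and chr4:63362199-63362498 (plus) for Orm2.
Saa1: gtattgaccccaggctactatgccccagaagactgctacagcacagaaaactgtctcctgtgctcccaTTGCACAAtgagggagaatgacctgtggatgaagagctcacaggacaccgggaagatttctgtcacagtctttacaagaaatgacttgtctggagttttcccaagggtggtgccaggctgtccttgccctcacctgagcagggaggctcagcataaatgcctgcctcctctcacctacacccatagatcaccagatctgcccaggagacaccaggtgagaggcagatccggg
Saa2: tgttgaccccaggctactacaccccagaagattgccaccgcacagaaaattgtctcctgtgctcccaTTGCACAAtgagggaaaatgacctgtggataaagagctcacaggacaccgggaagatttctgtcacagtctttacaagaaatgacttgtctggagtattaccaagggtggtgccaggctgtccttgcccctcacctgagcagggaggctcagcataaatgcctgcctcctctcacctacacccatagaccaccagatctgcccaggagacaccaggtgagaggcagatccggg
Orm2: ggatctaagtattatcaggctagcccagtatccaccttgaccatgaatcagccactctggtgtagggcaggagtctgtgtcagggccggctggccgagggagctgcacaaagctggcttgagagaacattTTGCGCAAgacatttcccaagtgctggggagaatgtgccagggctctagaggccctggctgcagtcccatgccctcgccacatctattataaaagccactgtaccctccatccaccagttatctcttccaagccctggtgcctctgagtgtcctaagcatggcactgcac
Capitals mark matches to TTGCNNAA on either strand, the core recognised by C/EBP factors, which drive many acute phase genes. The match begins 182 bases before the start site in Saa1, 183 in Saa2 and 120 in Orm2, where it reads the same on both strands. Of 32841 mouse promoter windows of the same length, 3547 (10.8%) held this motif. An NF-kB motif of 10 letters (1.63% of windows) and the STAT motif TTCNNNGAA (8.30%) had no match with these letters in the 3 windows. The Saa1 and Saa2 windows were alike at 287 aligned bases, with 12 mismatches and 2 gaps (95.35% identity).

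Fgl1, a fibrinogen-like protein secreted by hepatocytes (chr8:41191434-41215156, minus strand), separated the deep barcodes of day 21 from those of the control. Its lowest, median and highest levels were 0, 265 and 972 CPM at day 4, 720, 1282 and 2413 CPM at day 21, and 101, 379 and 633 CPM in the control. Every deep day 21 barcode thus stood above every deep control barcode. Its summed level was 281 CPM at day 4, 1342 CPM at day 21 and 339 CPM in the control, a log2 ratio of 1.99 (1.76 to 2.21) at day 21. The other higher members of the list were Mt2, a metal-binding metallothionein (log2 ratio 1.10), Orm1 (1.12), Saa4 (1.16), Apcs, which encodes serum amyloid P (1.38), Lrg1 (2.20) and Lcn2 (3.15). Lrg1 and Lcn2 were also high in the remaining day 21 barcodes, at 695 and 5325 CPM, against 685 and 751 CPM in the hepatocyte barcodes. Lcn2 is also a member of the neutrophil list, so its UMIs count in both lists. The part of neutrophil RNA in its ratio was not tested. Lcn2 was in 15 of 15 deep day 21 barcodes, against 9 of 25 in the control. Several members with high levels in all libraries had smaller ratios: Hp, haptoglobin, had a log2 ratio of 0.72 and Hpx, the haem carrier hemopexin, 0.62, and Fgb, a rule gene that encodes fibrinogen beta, 0.44. The 1 lower member was Hamp2, a hepcidin gene, at -1.07, and this turned to 0.27 without the 10 deepest barcodes.

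Of 20 complement genes 2 were at least 2-fold higher at day 21, C9 and C8a, components of the membrane attack complex, and 0 were lower, beside 5.55% and 5.09% of all genes. C9 stood at 108 CPM at day 4, 188 CPM at day 21 and 73.7 CPM in the control (day 21 log2 ratio 1.35, 0.80 to 1.90), and C8a at 161, 254 and 119 CPM (1.10, 0.64 to 1.54). The median of the complement list was 0.17, beside 0.18 over all genes. Without the 10 deepest barcodes of each library the C8a ratio was -0.00917.

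Several lists of metabolic genes had more lower than higher members at day 21. Of 33 cytochrome P450 genes 0 were higher and 7 lower, with a median of -0.60, and of 38 genes of conjugation and transport 0 were higher and 8 lower, with a median of -0.30. Over all genes 5.09% were lower, with a median of 0.18, and with median-of-ratios scaling the lower genes numbered 182 against 121. Cyp4a10, which oxidises fatty acids, stood at 126 CPM at day 4, 27.8 CPM at day 21 and 240 CPM in the control, a log2 ratio of -3.03 (-4.34 to -2.10) at day 21. It was found in 33 of 45, 2 of 15 and 22 of 25 deep barcodes. Cyp2e1 had a ratio of -1.29 (-1.51 to -1.09), and of -0.46 without the 10 deepest barcodes of each library. Its direction turned to 6.29 in deep barcodes with Cyp2f2, a split chosen after seeing the data in which the control held 0 Cyp2e1 UMIs, so that this fitted value is no bound. Slco1a1, a bile acid and drug transporter, had 86, 8 and 70 UMIs (-1.504, -2.85 to -0.52), was at -0.45 without the 10 deepest barcodes, and turned to 1.12 when barcodes were thinned to 1000 UMIs. The pericentral list had 1 of 18 genes lower overall and 8 of 18 in deep barcodes, beside 116 of 1900 (6.11%) of all genes there, and no deep day 21 barcode was Glul-rich.

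Several genes of glucose and insulin control were also lower at day 21. Igfbp1, an insulin-repressed binding protein for insulin-like growth factors (chr11:7197782-7202546, plus strand), had lowest, median and highest levels in deep barcodes of 0, 361 and 1074 CPM at day 4, 0, 123 and 607 CPM at day 21, and 354, 1138 and 2619 CPM in the control. The day 21 barcodes mostly lay below the lowest control barcode, and the ranges overlapped. Its log2 ratio was -3.06 (-3.54 to -2.65) at day 21 and -1.83 (-1.98 to -1.67) at day 4. Ppp1r3g, a glycogen-targeting subunit of protein phosphatase 1, had 223, 4 and 216 UMIs and was in 36 of 45, 3 of 15 and 24 of 25 deep barcodes, a ratio of -4.04 (-6.10 to -2.83) at day 21. Within the glucose list 0 of 21 genes were higher and 4 lower, beside 5.09% of all genes lower. They were Igfbp1, Slc2a2, the glucose transporter (-1.27), Irs2, an insulin receptor substrate (-2.16), and Ppargc1a, a coactivator of gluconeogenesis (-2.25). Sik1, a kinase induced by cyclic AMP, had 51, 2 and 67 UMIs. Maff, a small MAF transcription factor, had 43 UMIs at day 4, 0 at day 21 and 72 in the control, which at a floor of 3 counts over the summed barcodes is at least 8.21-fold lower at day 21. Rab30, a small GTPase, had 18, 0 and 57 UMIs and was at least 6.496-fold lower at day 21 by the same floor.

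Of the 16 genes of the apolipoprotein list 0 were higher and 3 lower, among them Apoa4 (-2.40) and Apob, the structural protein of very-low-density lipoprotein (-1.19). Beside this and the lists below, 5.55% of all genes were higher and 5.09% lower. In deep barcodes 1 of 16 was lower, beside 6.11% of all genes there, and Apob (-0.76) was within 2-fold. Of 25 genes of lipid and cholesterol synthesis 2 were higher, Acly (1.03) and Hmgcs1 (1.06), and 2 lower, with a median of 0.01. Immediate early and dissociation genes, which respond to tissue handling, were mixed over all hepatocyte barcodes. Among 15, Dusp1 (1.78), Fos (1.17) and Zfp36 (1.05) were higher and Jund (-1.24) and Gadd45b (-1.23) lower, with a median of 0.10. In deep barcodes 5 of 13 were higher and 1 lower, with a median of 0.42. Over all genes there 4% were higher and 6.11% lower, with a median of 0.02. Without the 10 deepest barcodes Jund (-0.68) and Gadd45b (-0.65) were within 2-fold.

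The day 21 differences depended on depth in several respects, and the shallow barcodes leaned to higher levels. In shallow barcodes 92 of 444 genes (20.7%) were higher and 9 (2.03%) lower, with a median of 0.47 over all genes. The list of urea cycle and amino acid breakdown had 13 of 21 genes higher there with a median of 1.05, but 0 of 30 over all barcodes with a median of 0.28, and a median of -0.05 in deep barcodes. Gm42418 took 3.21% of shallow UMIs at day 4, 0.973% at day 21 and 12.4% in the control, and its part in these shifts was not tested.

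At day 4 the hepatocyte barcodes carried high levels of fatty acid synthesis messages, while the acute phase list had 1 higher and 1 lower gene. Of 3851 genes compared, 70 (1.82%) reached 2-fold higher and 58 (1.51%) 2-fold lower levels than in the control. In deep barcodes these were 51 (1.52%) and 61 (1.82%) of 3349, and in shallow ones 82 (12.9%) and 15 (2.35%) of 637, where the median of all genes was 0.36. Of 29 genes of lipid and cholesterol synthesis 7 were higher and 0 lower, with a median of 0.25. The 7 were Thrsp, Fasn, Acacb, Acaca, Elovl6, Acly and Srebf1, which run in role through Srebf1, the transcription factor of the pathway, Acly, which makes cytosolic acetyl-CoA, the carboxylases Acaca and Acacb, the synthase Fasn and the elongase Elovl6. In shallow barcodes Acacb turned to -0.40. Of 27 acute phase genes 1 was higher (Hamp2, 1.16, which turned to -0.069 with a 10% plasma protein threshold) and 1 lower (Mt2, -1.13), with a median of -0.26.

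Thrsp, a small protein that follows lipogenic activity (chr7:97412938-97417730, minus strand), had 2127 UMIs or 1600 CPM at day 4, 202 UMIs or 702 CPM at day 21 and 303 UMIs or 360 CPM in the control. In deep barcodes its lowest, median and highest levels were 127, 1204 and 4130 CPM at day 4, 0, 537 and 1609 CPM at day 21, and 49.2, 241 and 2006 CPM in the control, so the ranges overlapped widely while the medians stood apart. It was detected in 163 of 196 shallow barcodes at day 4, 49 of 104 at day 21 and 27 of 79 in the control. Its log2 ratio at day 4 was 2.15 (1.98 to 2.33). Fasn (chr11:120805846-120824547, minus strand) had 500 UMIs or 376 CPM, 53 UMIs or 184 CPM and 78 UMIs or 92.7 CPM at day 4, day 21 and in the control, with deep medians of 344, 185 and 72.0 CPM and deep maxima of 1533, 596 and 279 CPM. Its log2 ratio was 2.01 (1.67 to 2.38) at day 4. Elovl6 had 152, 9 and 30 UMIs (day 4 log2 ratio 1.66), and Srebf1 239, 25 and 75 UMIs (1.01). Mid1ip1, a partner of Thrsp that activates acetyl-CoA carboxylase and was named by the size of its ratio, had 66, 19 and 7 UMIs (2.49, 1.45 to 3.95).

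**Figure D4:**
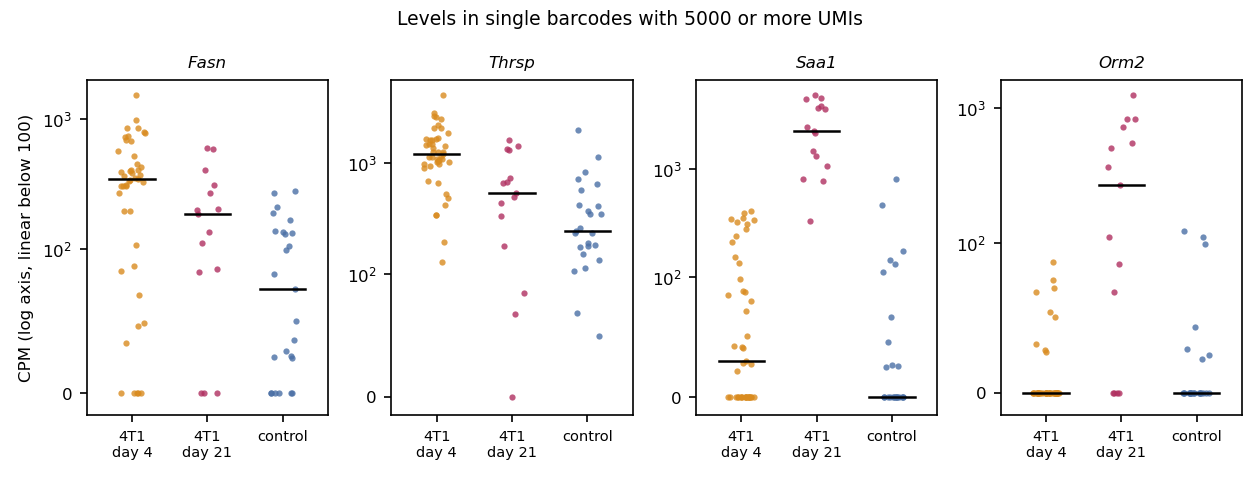
CPM of Fasn, Thrsp, Saa1 and Orm2 (log axis, linear below 100) in single hepatocyte barcodes with 5000 or more UMIs at day 4 (n = 45), day 21 (n = 15) and in the control (n = 25), with black lines at the medians. Saa1 stands at 334 to 4860 CPM in every day 21 barcode, and Thrsp has its highest median at day 4, at 1204 CPM against 241 CPM in the control.

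The list of fatty acid oxidation and ketogenesis had a lower median at day 4 than all genes. Of its 30 genes 0 were higher and 2 lower, beside 1.82% higher and 1.51% lower over all genes. The median of the list was -0.23, beside 0.07 over all genes. In deep barcodes 2 of 29 were lower, with a median of -0.37, beside 1.82% lower and a median of -0.00025 over all genes there. In shallow barcodes the median of the list was 0.34, beside 0.36 over all genes there. The 2 lower genes were Cyp4a14, which had 21, 3 and 70 UMIs (-2.37), and Angptl4, an inhibitor of lipoprotein lipase (-1.31). Cpt1a, which admits fatty acids to mitochondria, had a ratio of -0.98 and did not reach 2-fold. Apoa4 (chr9:46240696-46243459, plus strand) had 390, 64 and 996 UMIs and a day 4 ratio of -2.01 (-2.19 to -1.84), with deep medians of 197, 272 and 501 CPM. The day 4 ratio was -0.82 without the 10 deepest barcodes of each library. The highest deep control barcode reached 12362 CPM and the next 2359 CPM, and the deep ranges overlapped. Glucocorticoid-responsive genes had 0 of 15 higher and 2 lower, with a median of -0.49, beside 1.51% of all genes lower and a median of 0.07. Gadd45b, a stress-response gene, had 10, 7 and 51 UMIs (-2.95) and was in 6 of 45, 2 of 15 and 17 of 25 deep barcodes. Csad, a taurine synthesis enzyme, had 45, 40 and 168 UMIs (-2.55), but its ratio was -0.19 in deep barcodes with Cyp2f2.

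Sult2a1 and Sult2a5 had the highest day 4 ratios among the genes named by ratio, while of 40 genes of conjugation and transport 0 were higher and 0 lower. The counts of list members here stand beside 1.82% higher and 1.51% lower over all genes at day 4, with a median of 0.07. Sult2a1, a bile acid and steroid sulfotransferase (chr7:13796246-13837409, minus strand), had 139, 15 and 12 UMIs, a day 4 ratio of 2.82 (2.02 to 3.86), and was in 20 of 45, 2 of 15 and 5 of 25 deep barcodes. Sult2a5 had 73, 5 and 7 UMIs (2.63). Of 14 female-biased genes 3 were higher (Sult2a1, A1bg and Cyp17a1) and 1 lower, with a median of -0.10. Of 5 major urinary proteins, pheromone carriers, 3 were higher and 0 lower, with a median of 1.14 (Mup9 1.70, Mup1 1.48 and Mup17 1.14). These paralogs share reads, and the direction of their median turned to -0.22 in deep barcodes with Cyp2f2, while Mup1 turned to -1.25 in shallow barcodes. Cyp7a1, the rate-limiting enzyme of bile acid synthesis, had 171, 7 and 38 UMIs (1.495, 0.996 to 2.06), Gnmt, which consumes methyl groups in the liver, 2303, 346 and 630 UMIs (1.21, 1.08 to 1.34), and Dbp, a clock output factor, 134, 10 and 33 UMIs (1.35). Gnmt was the 1 of 33 genes of urea cycle and amino acid breakdown past 2-fold, and the median of that list was 0.44.

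**Figure D5:**
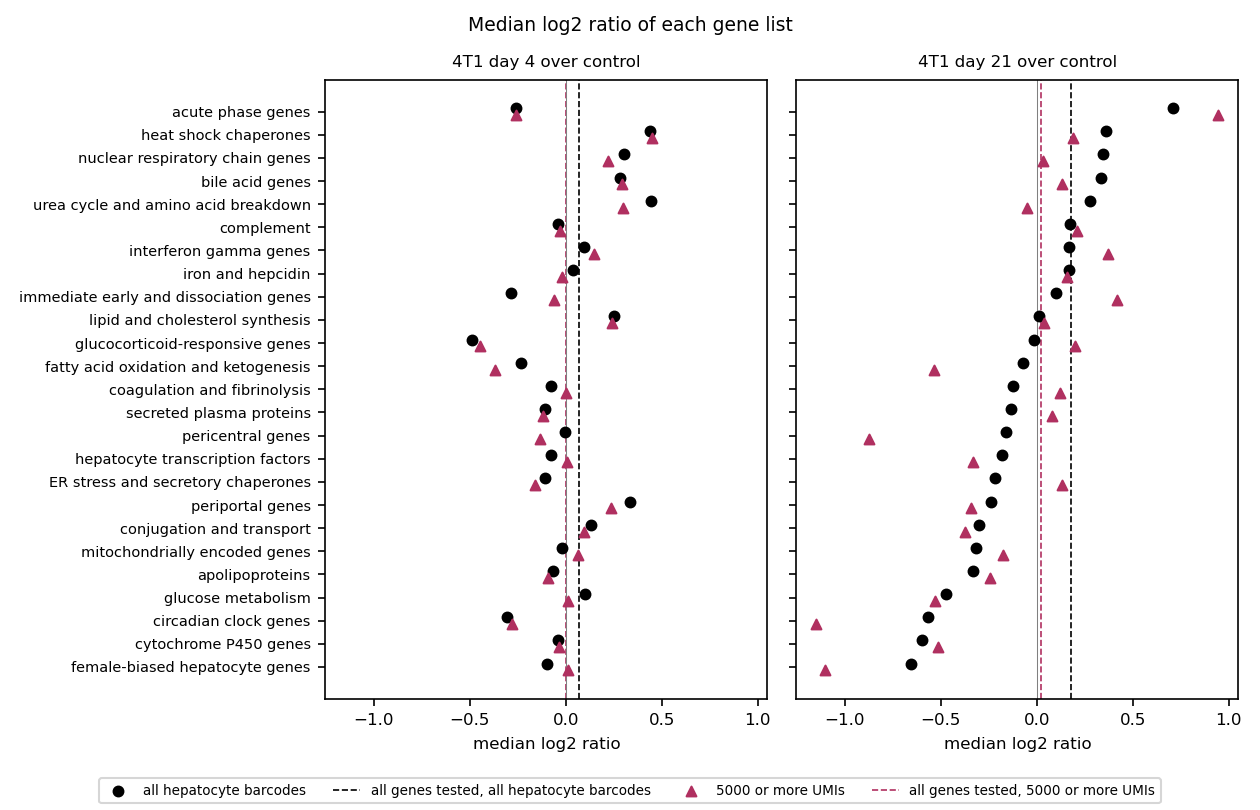
Median log2 ratio of each gene list for day 4 over control and day 21 over control, over all hepatocyte barcodes (circles) and those with 5000 or more UMIs (triangles), with dashed lines at the median of all genes. The acute phase list stands at 0.71 and 0.95 at day 21 and at -0.26 at day 4.

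Hnf4a had 299, 50 and 160 UMIs, with log2 ratios of 0.24 (-0.04 to 0.53) at day 4 and -0.12 (-0.62 to 0.34) at day 21, both intervals including 0, and at day 21 of -0.62 in deep and 1.28 in shallow barcodes. Of the list of hepatocyte transcription factors 1 of 21 was higher at day 4 (Srebf1) and 0 lower, and at day 21 0 of 17 were higher and 2 lower, Ppargc1a and Foxa3 (-1.17, and -0.54 without the 10 deepest barcodes). In deep barcodes at day 21 4 of 17 were lower, with a median of -0.33, beside 6.11% of all genes there. The nuclear genes of the respiratory chain had 0 of 72 past 2-fold at day 4, with a median of 0.31. Heat shock chaperones had 0 of 14 past 2-fold at day 4, with a median of 0.44. The periportal list had 0 of 18 genes higher and 2 lower at day 4, with a median of 0.33, and 0 of 17 higher and 2 lower at day 21, with a median of -0.24. These list counts stand beside 1.82% higher and 1.51% lower over all genes at day 4, and 5.55% and 5.09% at day 21. The medians over all genes were 0.07 and 0.18. Type I interferon genes, of which 6 could be compared at day 4, had a median of 0.55 there, and 0.12 over 5 genes in deep barcodes.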

How the data were processed

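The deposited values are raw UMI counts of 31053 genes in each of 3 matrices. Per the file headers they came from Cell Ranger 3.1.0, and the genome was mm10 per the submitters' processing notes. The counts were deposited after cell calling, and the smallest barcode held 500 UMIs. Gene positions were found for 30934 gene IDs in GENCODE M21 (GRCm38). How many mice each library held and the control's day of collection are not given in the sources used here. There were 0 unused columns of per-sample values.

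Barcodes of the rule were summed per library and scaled to CPM. Log2 ratios add 0.5 counts and carry exact conditional binomial 95% intervals, share intervals are Clopper-Pearson, and ratios of shares carry log-scale intervals. With 1 library per group, no test was made. Genes were compared at 50 or more UMIs over both libraries. The genes named are the 10 highest and 10 lowest ratios (detected in at least 10% of the barcodes where higher, at a level not below the remaining barcodes, interval leaving out 0), up to 3 per list by UMIs and up to 3 by ratio, and the hepatocyte markers and transcription factors. Other genes were named after their values were seen. The members, gene lists (29) and zonal and Gm42418 splits were chosen with earlier results of these data known. Doublets were scored with Scrublet (expected rate 0.8% per 1000 barcodes) but kept. Its threshold marked 0 barcodes (0%) at day 4, 698 (5.96%) at day 21 and 38 (0.655%) in the control, against expected 7.34, 9.87 and 5.19%. At day 4 the highest-scoring 538 were used instead, of which 3 were hepatocyte barcodes; at day 21 and in the control 0 were. Steps were tested on simulated counts. The computing used Scanpy 1.11.5, SciPy 1.17.1, NumPy 2.4.6 and pandas 2.3.3 in Python 3.11.15, with figures by matplotlib 3.10.9. Alternatives numbered 15 planned and 5 added for expression, and 7 and 4 for shares. Some list members are not reported here.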

Additional observations from a re-analysis of the deposited data

How the results depend on the processing

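With 1 library per group, none of the differences could be set against variation between mice, and deep barcodes number as few as 15 at day 21, so genes under the 50 UMI minimum are out of reach. Over the named genes, 5054 values stayed within their interval under the alternatives, 1304 moved and 23 reversed, with 59 left out at 3 or fewer UMIs in both libraries, and over the list medians 935 stayed, 195 moved and 3 reversed. The cause of each change below was not tested, except where fewer barcodes or genes were compared by construction. No paired analysis was possible because each group had 1 library and no replicate numbers.

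The ratio of shares at day 4 (1.75) was 2.49 with a 20% mitochondrial limit, 1.15 with a 10% and 1.38 with a 1% plasma protein threshold, and 2.68 without barcodes over 10% Gm42418. At day 21 (0.545) it was 0.781 with the 20% limit, 0.411 with the 10% threshold, 0.402 with 1000 or more UMIs, 0.338 with 5000 or more, 0.906 without calprotectin-rich barcodes in the denominator and 0.843 without barcodes over 10% Gm42418. The intervals of 1.15 at day 4 and of 0.781 (0.571 to 1.07), 0.906 and 0.843 at day 21 include equal shares. The Gm42418 setting left such barcodes out of the hepatocyte count only and kept them in the denominator.

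For day 4, the 70 higher and 58 lower genes became 38 and 21 with the 10% threshold, 595 and 298 with means over barcodes, 259 and 193 with a minimum of 20 UMIs, and 12 and 11 with 200 UMIs. The lower genes alone became 125 with the 1% threshold, 15 in shallow barcodes, 36 without the 10 deepest barcodes, 27 in deep Cyp2f2 barcodes and 11 with barcodes thinned to 1000 UMIs. For day 21, the 132 higher and 121 lower became 53 and 51 with the 10% threshold, 44 and 67 in deep Cyp2f2 barcodes, 55 and 9 when thinned, 63 and 182 with median-of-ratios scaling, 396 and 303 with 20 UMIs, and 35 and 33 with 200 UMIs. The higher genes alone became 209 with no mitochondrial limit, 277 with the 1% threshold, 76 in deep barcodes, 199 without the 10 deepest and 437 with means over barcodes, and the lower genes alone 9 in shallow barcodes.

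Lists with a median of at least 0.5 in size numbered 2 at day 4. They numbered 1 with the 10% threshold, in deep barcodes, in deep Cyp2f2 barcodes and with 200 UMIs, 11 in shallow barcodes, 4 without the 10 deepest, 10 when thinned and 7 with means over barcodes. At day 21 they numbered 7, with 13 in shallow barcodes and when thinned, and 11 with means over barcodes.

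Reversed at day 4 were Hamp2 (-0.069), Cd74 (2.59) and Cyp2c69 (0.35) with the 10% threshold, Cd74 in deep barcodes (0.99), without Gm42418-rich barcodes (2.23) and in deep Cyp2f2 barcodes (2.18), where the major urinary protein median was -0.22, Mup1 (-1.25), Acacb (-0.40), Serpina12 (0.13) and Cd74 (0.58) in shallow barcodes, and Mup1 when thinned (-1.26) and with means over barcodes (-0.28). Reversed at day 21 were the clock median (0.39), Cyp2e1 (3.60) and Mrpl16 (-0.25) with the 10% threshold, Akr1c6 (-0.11) and Mrpl16 (-0.051) in deep barcodes, Nfil3 (0.84) in shallow barcodes, C8a (-0.00917) and Hamp2 (0.27) without the 10 deepest, Cyp2e1 (6.29) and Mrpl16 (-0.76) in deep Cyp2f2 barcodes, Slco1a1 (1.12) when thinned, and the clock median (0.70) and Nfil3 (0.70) with means over barcodes. The settings by depth class (5000 or more UMIs, under 2000 UMIs, without the 10 deepest), by Cyp2f2, by Gm42418 and by calprotectin in the denominator were chosen after seeing the data.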
